A study of Mus musculus with 3 samples.

Results

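The genes that write and read 5-methylcytosine (m5C) in RNA were followed through their own messenger RNAs, as bisulfite sequencing saw them in mouse embryonic stem cells without Tet enzymes. The 9 genes were taken by name, 7 methyltransferases (Nsun2, Nop2, Nsun3, Nsun4, Nsun5, Nsun6 and Trdmt1) and 2 m5C-binding proteins (Alyref and Ybx1), and all 9 had at least 1 listed cytosine among the 13224 named genes of the series. All 3 samples form 1 group: stem cells of J1 background with both alleles of Tet1, Tet2 and Tet3 mutated, grown with serum and leukaemia inhibitory factor on embryonic fibroblast feeders, which were then removed by their faster attachment. No sample with intact Tet genes was analysed here, so cytosines are set against the background of their own library and genes against other genes. The labels do not say whether the samples were separate cultures, so the spread between them may be technical.

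RNA m5C is placed by the NSUN family and by the tRNA methyltransferase TRDMT1, also called DNMT2, which transfer a methyl group to cytosine through a catalytic cysteine. Most of these enzymes act on ribosomal or transfer RNA, and NSUN2 and NSUN6 also act on mRNA. ALYREF binds m5C in the nucleus and takes part in mRNA export, and YBX1 binds m5C in the cytoplasm and stabilises mRNAs. Tet enzymes oxidise m5C to 5-hydroxymethylcytosine. Bisulfite leaves both of these bases unconverted, as it does a cytosine that it failed to reach, so an unconverted read does not tell them apart.

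Each library held 139884444 to 151362866 counts of coverage over 3653533 to 3846960 listed cytosines, where 1 read adds to every cytosine that it covers. The library-wide unconverted share, used as background, was 1.53%, 1.45% and 1.41% in replicates 1 to 3. All 9 stem cell markers checked were listed and took 0.455% to 0.474% of the coverage, while 6 of 8 fibroblast markers were listed, at 0.0544% to 0.0753%, with Dcn and Postn absent. The part of feeder RNA in the results was not tested. Coverage stands only roughly for transcript abundance, and in bulk samples a lower level per cell cannot be told apart from fewer cells with the transcript.

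The mRNAs of these genes were read at very different depths. Ybx1 (NM_011732.2) was the deepest, with a median coverage per listed cytosine of 230, 203 and 217.5 reads in replicates 1, 2 and 3. Alyref (NM_011568.1) followed with 85, 69 and 75 reads. Nsun2 (NM_145354.5) had 61, 54 and 54 reads, below every library of Alyref. Nop2 (NM_138747.2) had 43, 40 and 42 reads. These 4 ranges did not overlap. Nsun5 (NM_145414.2) came next with 12, 11 and 11 reads, above the remaining methyltransferases.

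The remaining methyltransferase mRNAs were shallow. Nsun4 (NM_028142.4) had 7, 6 and 7 reads. Nsun3 (NM_178925.3) had 4.5, 4 and 5 reads, close to the listing minimum of 3 and below every library of Nsun4. Trdmt1 (NM_010067.4) had 5, 7.5 and 6 reads, a range that met both of theirs. Library by library it lay above Nsun3 in each, and above Nsun4 in replicate 2 alone. Nsun6 was listed only as NM_001165942.1, with 1, 3 and 0 cytosines in the 3 libraries, all between positions 976 and 1008 and at 3 reads. How reads common to several transcript models of a gene were counted is not stated, so the few Nsun6 cytosines do not show a low level of that mRNA.

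**Figure D1:**
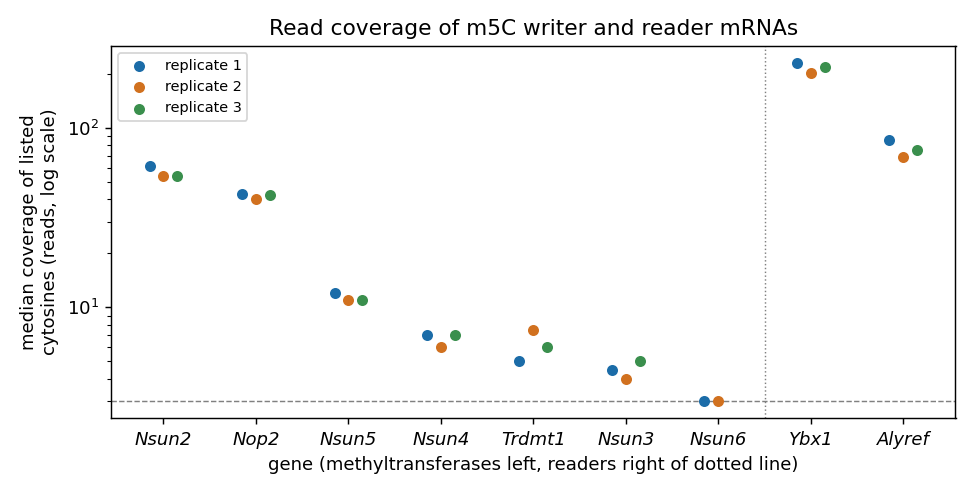
Median coverage of the listed cytosines (reads, log scale) for each methyltransferase and reader mRNA, with 1 point per library and a dashed line at the listing minimum of 3 reads. Ybx1 lies highest at 203 to 230 reads, and Nsun6 has points in 2 libraries only.

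A cytosine could be tested with at least 10 reads in each of the 3 libraries, which held for 2055 cytosines in 7 of the 9 mRNAs. Nop2 had 585, Nsun2 542, Ybx1 372, Alyref 238, Nsun5 193, Nsun4 93 and Trdmt1 32. Nsun3 and Nsun6 had 0 and enter no test.

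Over all testable cytosines of an mRNA, both readers stayed unconverted more often than the background in every library, while Nsun2, Nop2 and Nsun5 lay closer to it. The unconverted share of Alyref was 2.00%, 2.06% and 2.08% in replicates 1, 2 and 3, a mean of 2.05% ± 0.0397 (SD, n = 3). Its lowest library lay above the highest library of every other member with at least 100 testable cytosines. Among the 4746 genes of the series with that many testable cytosines, 15, Alyref included, had a mean share at least as high, or 0.316%. Ybx1 had 1.81%, 1.79% and 1.60%, a mean of 1.73% ± 0.114 (SD, n = 3), and 3.92% of those genes were as high or higher.

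Nsun2 had 1.52%, 1.48% and 1.35%, above the background in 1 library of 3. Nop2 had 1.59%, 1.46% and 1.41%, above it in all 3 libraries but by less than the spread between them. Nsun5 had 1.64%, 1.32% and 1.51%, above it in 2 libraries. Nsun4 varied more, with 1.76%, 1.82% and 1.14% from 93 cytosines, and Trdmt1 most, with 2.12%, 1.17% and 1.07% from 32 cytosines and 13, 8 and 7 unconverted counts. Trdmt1 was thus the one member to pass Alyref in any library, on the fewest counts.

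The differences of the readers from Nsun2, and of Alyref from Ybx1, kept their sign across libraries. Alyref exceeded Nsun2 by 0.593 ± 0.124 percentage points and Ybx1 exceeded Nsun2 by 0.281 ± 0.0281, in 3 of 3 libraries each. Alyref exceeded Ybx1 by 0.312 ± 0.147, also in 3 of 3 (SD, n = 3). Over 3 libraries the exact sign-flip test (two-sided) cannot give a p below 0.25, which it gave for each of these differences. Not every well-read pair kept its sign. Nsun2 lay below Nop2 in replicates 1 and 3 and above it in replicate 2.

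**Figure D2:**
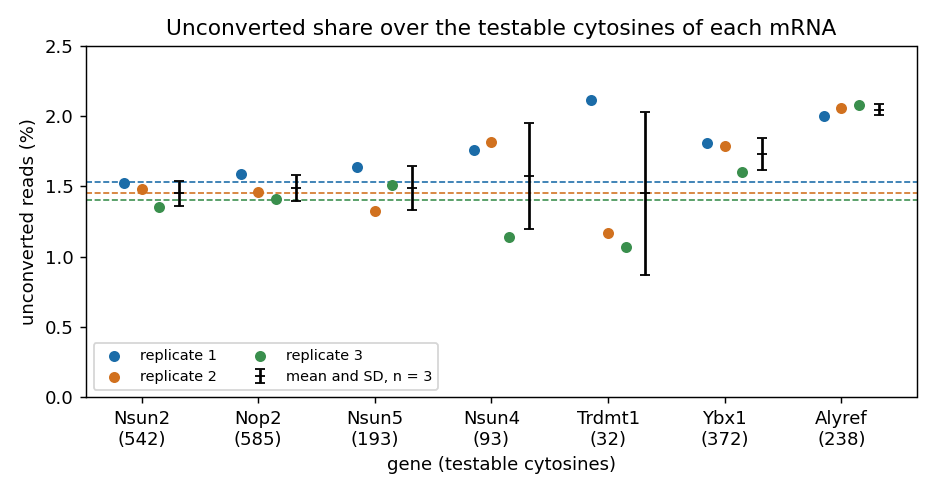
Unconverted reads (%) over the testable cytosines of each mRNA, whose number stands in parentheses, with 1 point per library, the mean and SD in black and dashed lines at the background of each library in the same colour. The 3 Alyref libraries sit between 2.00% and 2.08%, while Nsun4 and Trdmt1, with few testable cytosines, spread widely.

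Pooled over its testable cytosines, the whole group of writers and readers had an unconverted share of 1.64% ± 0.0858 against 1.46% ± 0.0637 in all other genes, a difference of 0.179 ± 0.0340 percentage points (SD, n = 3; higher in 3 of 3 libraries; exact sign-flip p = 0.25). Without Alyref the share was 1.60% ± 0.0972 and the difference 0.137 ± 0.0438, again in 3 of 3 libraries (exact sign-flip p = 0.25). The methyltransferases alone, 5 of 7 with testable cytosines, stood at 1.47% ± 0.0896. This was 0.0114 ± 0.0274 above other genes, and higher in 2 of 3 libraries (exact sign-flip p = 0.75). By the mean share of each gene over the 3 libraries, the median gene of the group had 1.49%, against 1.44% over all genes with a testable cytosine.

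Single cytosines were then tested against the background of their library by a one-sided exact binomial test, and Fisher's method joined the 3 p-values before Benjamini-Hochberg adjustment over the 1639820 testable cytosines of the series. To count as a candidate, a cytosine needed a mean unconverted share of 10% or more, an adjusted p below 0.05, and in every library a share higher than the background. Over all genes 0.0473% of testable cytosines were candidates. The writers and readers held 6 candidates, or 0.292% (exact 95% interval 0.107% to 0.634%). These were 4 in Alyref, 1 in Nsun2 and 1 in Nop2.

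Without Alyref, 2 of 1817 testable cytosines were candidates, or 0.110%, and the exact 95% interval of 0.0133% to 0.397% holds the value of all genes. By genes, 3 of 7 members held a candidate, where 6.65% of the 9002 genes with a testable cytosine did. These gene counts were not matched for the number or depth of testable cytosines per gene. The median coverage of testable cytosines was 66.7 reads in the members and 30.3 over all genes. The 95% intervals cover counting error only and take cytosines as independent, although neighbours share reads. The libraries were amplified by PCR without molecular identifiers, so reads are not all separate molecules.

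Regardless of level, the same exact test gave an adjusted p below 0.05 at 0.499% of all testable cytosines, and such cytosines are referred to as called. In the writers and readers 41 of 2055 did, or 2.00%, and without Alyref 29 of 1817, or 1.60%. Of the 41, 20 lay in Ybx1, 12 in Alyref, 8 in Nsun2 and 1 in Nop2. Most were weak, as 35 had a mean share below 10%. An unadjusted p below 0.05 in each of the 3 libraries, by the exact binomial test, was reached by 28 of the 41. Over all genes the percentage of cytosines called rises steeply with depth, and depth-matched values follow the accounts of the single mRNAs.

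Among the methyltransferases, Nsun2, which methylates tRNA and mRNA, carried the clearest site. At position 1952 of its transcript 11 of 68 reads were unconverted in replicate 1, 10 of 60 in replicate 2 and 12 of 85 in replicate 3, which is 16.2%, 16.7% and 14.1%. The 3 values agree within counting error, with 95% Wilson intervals that run from 8.26% to 28.0% over the libraries. The mean was 15.7% ± 1.35 (SD, n = 3; adjusted p = 1.90e-18, exact binomial test combined over libraries).

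The Nsun2 site stood alone. The nearest listed cytosines lay at 10 nt upstream and at 8 and 10 nt downstream. In windows of 100 nt along Nsun2, the one from 1901 to 2000 had a share of 2.56% ± 0.524 with the site and 1.61% ± 0.532 without it (SD, n = 3). Without the site, the highest of the 26 windows with at least 5 testable cytosines was 2101 to 2200, with 2.20% ± 0.268, and the lowest 2401 to 2500, with 0.982% ± 0.155. Coverage at the site, 71.0 reads on average, was close to the median of 65.2 reads found 50 to 100 nt upstream and below the 160 reads found downstream.

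The other 7 called cytosines of Nsun2 had mean shares of 2.74% to 6.46%. The highest of these was position 902, where 9 of 132, 8 of 114 and 6 of 108 reads were unconverted. Position 839 shows how a single library can carry such a call, with 5 of 156, 4 of 127 and 10 of 117 reads and an unadjusted p below 0.05 in replicate 3 alone. Of the 8 called Nsun2 cytosines, 3 passed an unadjusted p of 0.05 in every library.

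Nop2, a nucleolar methyltransferase of large-subunit ribosomal RNA, had the weakest candidate. At position 471, 4 of 32, 2 of 24 and 3 of 30 reads were unconverted, a mean of 10.3% ± 2.10 (SD, n = 3; adjusted p = 0.0175, exact binomial test combined over libraries). Only 9 unconverted reads support it, and the call was lost without replicate 1 (9.17%, adjusted p = 0.434), without replicate 2 (11.2%, adjusted p = 0.0516) and without replicate 3 (10.4%, adjusted p = 0.156), all by the same exact test. It was also lost in the beta-binomial test, which allows for extra spread between cytosines (adjusted p = 0.0806, against exact or beta-binomial values from 0.0111 to 1 over all alternatives). Without this site, the other 16 testable cytosines of the window from 401 to 500 had 2.70% ± 0.731 (SD, n = 3), the highest share of the 25 Nop2 windows.

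The other methyltransferases had no called cytosine. Nsun5, another enzyme of large-subunit ribosomal RNA, had 0 candidates among 193 cytosines (exact 95% upper limit 1.89%) and 5 with an unadjusted combined p below 0.05. Its highest mean share, at position 88, came from 0 of 10, 3 of 12 and 0 of 13 reads, thus from replicate 2 alone. Nsun4, which methylates mitochondrial ribosomal RNA, had 0 among 93 (upper limit 3.89%), with 0 at an unadjusted combined p below 0.05 and a highest mean share of 6.87% at position 602. The beta-binomial test gave 0 candidates in these mRNAs as well. At the median depth of Nsun4, 18.7 reads per library, a count of 0 in 1 library allows a share of up to 16.1% (3 counts of the total).

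Trdmt1, the tRNA methyltransferase also known as Dnmt2, is shown at its transcript start, where its testable cytosines were densest. The bases below are from RefSeq (GRCm38.p6, minus strand), positions 21 to 50 of the transcript, and the capitals mark the cytosines listed in the tables.
Trdmt1: ggttgCgagaggatggaaCCtCtgCgtgtC
All 6 cytosines of the stretch were listed, and its ATG begins at position 33. Over them, 2 of 185, 2 of 118 and 1 of 128 counts were unconverted, and none of the 5 testable ones was called. In the whole mRNA 0 of 32 testable cytosines were candidates (exact 95% upper limit 10.9%; 0 also in the beta-binomial test), and 1 had an unadjusted combined p below 0.05. That one was position 975, with 2 of 13, 1 of 26 and 1 of 17 reads. Nsun3, which methylates a mitochondrial tRNA, had 4 of 287, 2 of 173 and 3 of 342 unconverted counts over its listed cytosines, and Nsun6, which acts on tRNA and mRNA, 0 of 3 and 1 of 9 in the 2 libraries that listed it.

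Alyref, the nuclear m5C reader, carried more candidates than any other member. The start of its transcript was close to the background. The stretch from position 17 to 46 is shown because every cytosine in it was testable (RefSeq, GRCm38.p6, minus strand, capitals marking the listed cytosines).
Alyref: CCgCgCCCgCCatggCCgaCaaaatggaCa
At these 12 cytosines 7 of 343, 3 of 292 and 2 of 248 counts were unconverted in replicates 1, 2 and 3, or 2.04%, 1.03% and 0.806%, and none was called. The first ATG of the stretch begins at position 28.

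From position 138 to 203 the picture changed. Position 187 was unconverted in 9 of 61, 7 of 42 and 9 of 56 reads, a mean of 15.8% ± 0.979 (SD, n = 3; adjusted p = 1.83e-13, exact binomial test combined over libraries). The neighbouring position 188 had 7 of 64, 9 of 42 and 7 of 56 reads, or 15.0% ± 5.66, with replicate 2 highest at 21.4% (95% Wilson interval 11.7% to 35.9%). Position 183 had 9 of 68, 7 of 49 and 8 of 60, or 13.6% ± 0.580. The libraries were nearly equal at 183 and 187 and further apart at 188.

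The fourth candidate, position 147, was less even, with 5 of 47, 5 of 61 and 8 of 53 reads, or 11.3% ± 3.50 (SD, n = 3). Without replicate 3 its mean share was 9.42%, below the 10% minimum. Below that minimum lay position 159, with 12 of 84, 4 of 88 and 8 of 73 reads, and position 162, with 6 of 85, 11 of 88 and 7 of 74. Their means of 9.93% and 9.67% put them just outside the rule. Counted from the ATG at position 28, positions 147, 183, 187 and 188 fall in codons 40, 52, 54 and 54.

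The run was not unbroken. Between the first and the last candidate, 41 nt apart, 8 of the 14 testable cytosines were called. Position 149 had 1 of 57, 1 of 65 and 0 of 57 unconverted reads, and position 154 had 0 of 73, 2 of 84 and 0 of 72. Position 198 had 0 of 114, 2 of 82 and 1 of 108. Converted cytosines thus stood a few bases from unconverted ones in all 3 libraries.

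**Figure D3:**
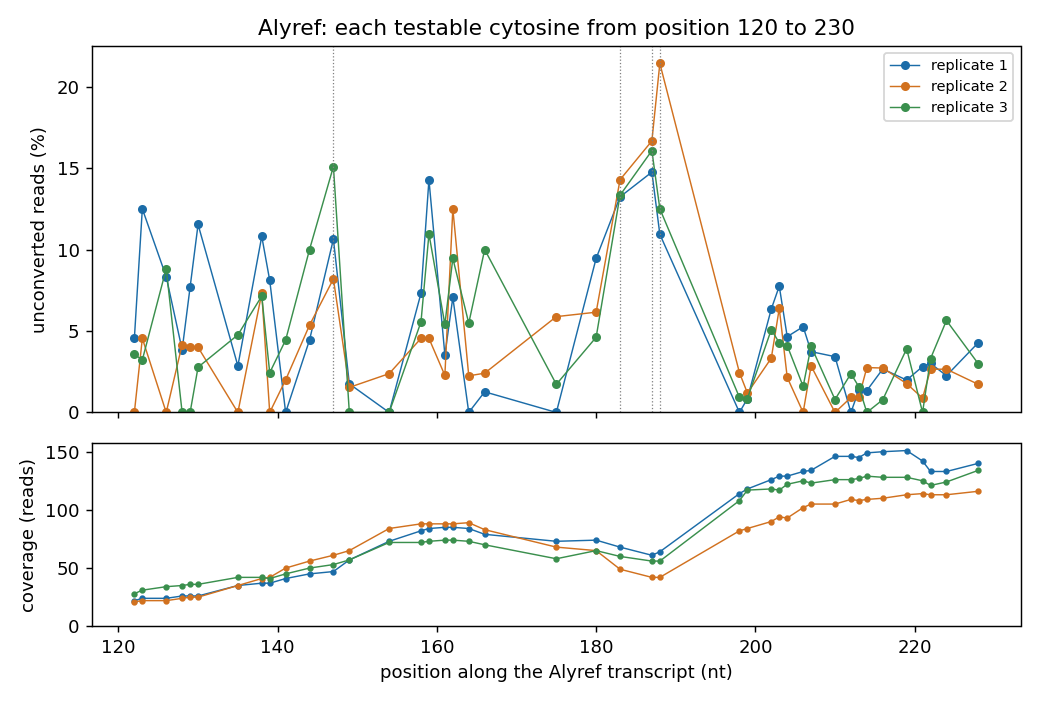
Unconverted reads (%) and coverage (reads) at each testable Alyref cytosine from position 120 to 230, with 1 line per library and dotted lines at the 4 candidates. The libraries peak together at 183 to 188, and coverage at 187 is 42 to 61 reads against 82 to 114 reads at position 198.

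Coverage was lower here than further along the mRNA. At position 187 it averaged 53.0 reads, against a median of 24.7 reads 50 to 100 nt upstream and 78.5 reads downstream. At 50 to below 100 reads, the depth of the 4 candidates, 8 of 103 Alyref cytosines had an adjusted p below 0.05, or 7.77%, where 0.441% of all cytosines of that depth did. The 4 candidates were 3.88% of these 103 cytosines, against 0.0258% over all genes. At greater depth Alyref was closer to all genes, with 2 of 62 called (3.23% against 1.15%) at 100 to below 200 reads and 1 of 18 (5.56% against 2.56%) at 200 to below 500. Alyref was also 1 of 19 genes with at least 4 candidates, a number reached by 0.211% of genes with a testable cytosine.

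Away from the run, the share of Alyref was lower and closer to the background. Positions 101 to 200 had 5.46%, 4.94% and 5.87%, and positions 201 to 300 had 2.54%, 1.97% and 2.21%. Outside positions 101 to 300, a split chosen after seeing the values, 167 testable cytosines had 1.60%, 1.79% and 1.68%, a mean of 1.69% ± 0.0951 (SD, n = 3) and above the background in each library. In replicate 1 the margin was small, 1.60% against a background of 1.53%. The last window, from 1101 to 1200, had 0.397% ± 0.0512, below the background in each library. Among the later positions only 478 was called, with 16 of 323, 24 of 318 and 19 of 303 reads, or 6.26% ± 1.30 (adjusted p = 1.50e-15, exact binomial test combined over libraries).

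The close relative Alyref2 had 7 listed cytosines and none testable. How reads were assigned is not stated, and reads of near-identical copies of Alyref could have been split or lost. The same holds for Ybx1.

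Ybx1, the cytoplasmic m5C reader, had the most called cytosines of the group and no candidate. All 20 lay below 10%, between 2.25% and 8.94%, at positions 195 to 1112, and 14 of them had an unadjusted p below 0.05 in each library. Of the 20, 6 lay in the window from 201 to 300 and 4 in that from 801 to 900. The others were spread singly or in pairs. The 4 stood close together, at positions 806, 813, 814 and 821, with mean shares of 2.43% to 3.34%. Of all genes with a testable cytosine, 0.444% had 20 or more.

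The highest Ybx1 cytosine was position 259, with 4 of 52, 8 of 73 and 4 of 49 unconverted reads, or 8.94% ± 1.77 (SD, n = 3; adjusted p = 7.42e-05, exact binomial test combined over libraries). Without replicate 2 it was no longer called (adjusted p = 0.120 by the same exact test). It stayed called without replicate 1 (0.000778) and without replicate 3 (0.00122). It was read less deeply than its surroundings, at 58.0 reads on average against medians of 254 and 162 reads on either side. Position 1015 had 13 of 253, 10 of 200 and 17 of 218 reads, or 5.98% ± 1.58, and position 243 had 16 of 245, 14 of 249 and 12 of 236, or 5.75% ± 0.731. At position 806 the depth made a small share measurable, with 38 of 1055, 40 of 1229 and 36 of 1134 reads, or 3.34% ± 0.227 (adjusted p = 8.35e-11 by the same exact test).

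Along Ybx1 some windows kept their side of the background in the 3 libraries and others did not. Positions 801 to 900 had 2.29%, 2.20% and 2.01%, positions 201 to 300 had 2.08%, 2.11% and 1.97%, and positions 701 to 800 had 1.31%, 1.16% and 1.09%. The last lay below the background in each library and the first 2 above it. Of 14 windows with at least 5 testable cytosines, 7 were above the background in 3 of 3 libraries, 2 below it in 3 of 3 and 5 mixed. Positions 1201 to 1300, at 38.6 reads on average, were among the mixed ones, with 2.69%, 2.02% and 0.947%. In Nsun2 these counts were 6 and 6 of 26 windows, and in Nop2 5 and 5 of 25.

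**Figure D4:**
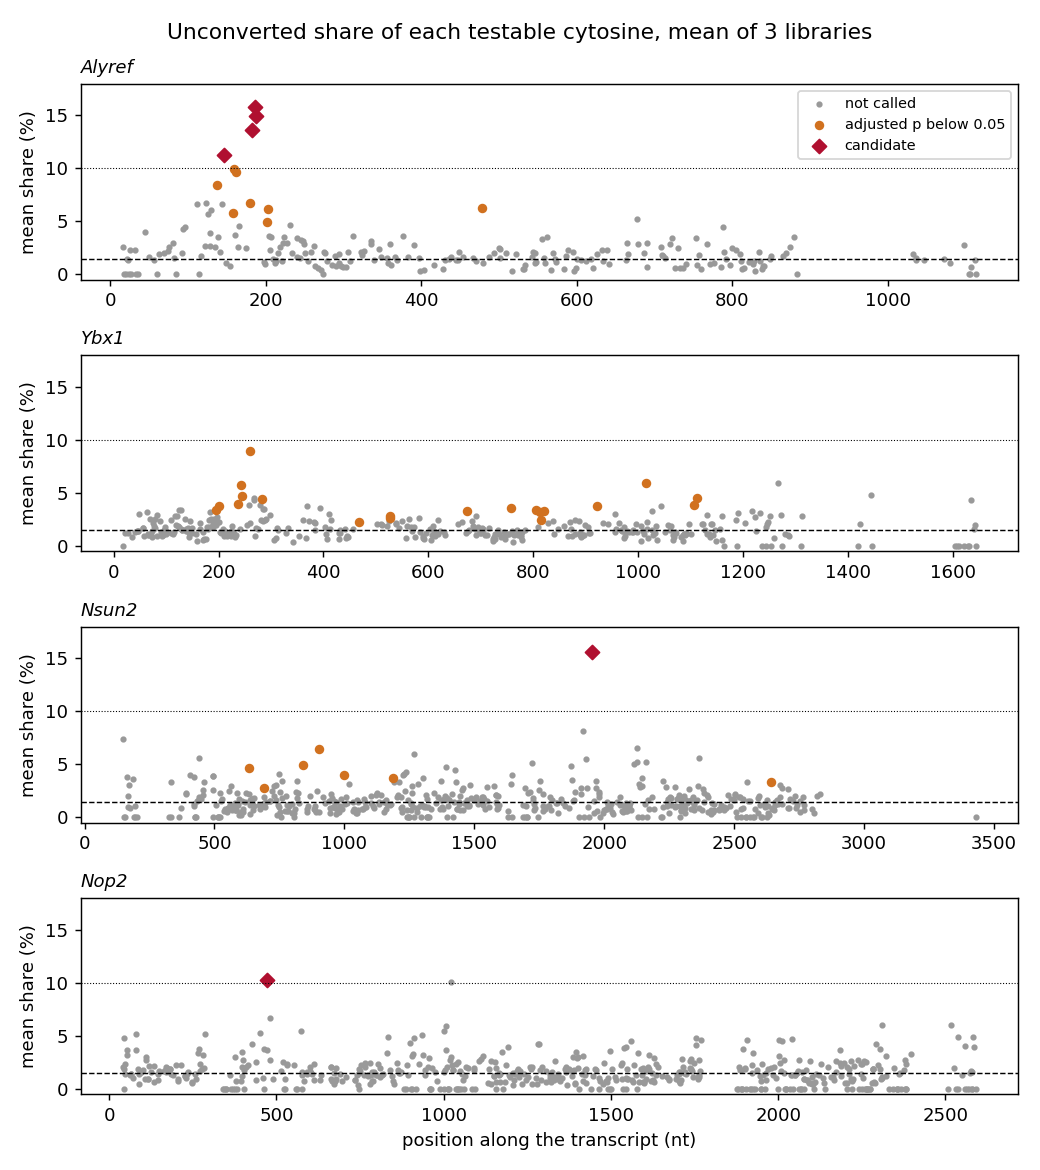
Mean unconverted share (%) of each testable cytosine along the transcripts of Alyref, Ybx1, Nsun2 and Nop2 (position in nt), with called cytosines in orange, candidates as red diamonds, the background as a dashed line and the 10% minimum as a dotted line. The 4 Alyref candidates lie between positions 147 and 188, and all 20 called Ybx1 cytosines lie below 10%.

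Matched for depth, Ybx1 was called more often than all genes in each bin from 50 reads upwards, on few cytosines in the outer bins. At 50 to below 100 reads, 1 of its 29 cytosines was called (3.45%), where 0.441% of all cytosines were. At 200 to below 500 reads, 8 of 191 Ybx1 cytosines (4.19%) and 4 of 75 Nsun2 cytosines (5.33%) had an adjusted p below 0.05, where 2.56% of all cytosines did. At 100 to below 200 reads it was 3 of 76 in Ybx1 (3.95%) and 2 of 143 in Nsun2 (1.40%), against 1.15%. At 500 to below 1000 reads it was 2 of 29 in Ybx1 (6.90%) and 1 of 6 in Nsun2 (16.7%), against 5.25%. At 1000 reads and above it was 6 of 13 in Ybx1 (46.2%), against 11.3%. Nop2 had 0 of 64 and 0 of 48 in the bins from 100 to below 200 and from 200 to below 500 reads.

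**Figure D5:**
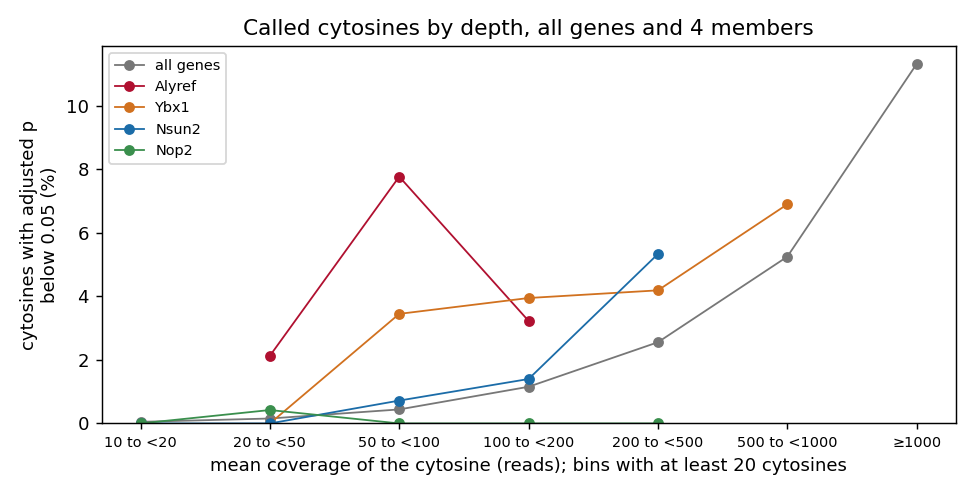
Percentage of testable cytosines with an adjusted p below 0.05, by mean coverage of the cytosine (reads), for all genes and 4 member mRNAs, in bins with at least 20 cytosines of that mRNA. The all-gene line starts at 0.0501% in the shallowest bin and ends at 11.3% in the deepest, and Alyref lies at 7.77% in the bin from 50 to below 100.

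The 6 candidate cytosines were looked at for the spacing of neighbouring cytosines that motifs of the writers require, since the base sequence at these positions is not used here. None had the spacing of CTCCA, the motif of NSUN6 (cytosines at +2 and +3, with +1 and +4 free of them), which 3.84% of all testable cytosines have. With 6 candidates this absence does not show a lower share. Of the 41 called cytosines 3 had the CTCCA spacing, or 7.32%, and of all 2055 testable ones in the group 3.89%. The spacing of CNGGG, a motif of NSUN2 (no cytosine at +2, +3 and +4), was found at 4 of the 6 (positions 187 and 188 of Alyref, 471 of Nop2 and 1952 of Nsun2) and at 42.7% of all testable cytosines. Of the 41 called cytosines it was found at 18, or 43.9%, and of all 2055 testable ones in the group at 44.3%. Many other sequences share these spacings. Another cytosine directly beside the site was present at 3 of the 6 and at 47.1% of all testable cytosines.

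Further lists from the same field were read for comparison. Of 8 other m5C binders, erasers and relatives, 7 were testable and 2 held a candidate each, among 1309 cytosines (0.153%). Srsf2, a splicing factor that binds m5C, had 25 called cytosines of 448, where Ybx1 had 20 of 372. Over all genes 0.499% of testable cytosines were called. That percentage rises with depth, and the genes of this list were not matched for depth. The Srsf2 candidate had 3 of 10, 2 of 12 and 2 of 15 reads at position 1742, or 20.0% ± 8.82 (SD, n = 3), on few reads. Ybx2, the germ cell relative of Ybx1, had 4 of 26, 2 of 28 and 2 of 15 reads at position 300, or 12.0% ± 4.29. Ybx3, another relative, had 2 called cytosines of 112 and no candidate.

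Of 16 mRNA export partners of Alyref, 13 were testable and 1 held a candidate, among 2346 cytosines (0.0426%). It lay in Poldip3, an export adaptor, at position 2301, with 6 of 71, 6 of 49 and 6 of 40 reads, or 11.9% ± 3.29 (SD, n = 3). Of 21 other RNA methyltransferases and their partners, 19 were testable and 1 held candidates, 2 among 3685 cytosines (0.0543%). Both lay near the start of the Fbl transcript, which encodes the ribosomal RNA methyltransferase fibrillarin, at position 151 with 13.8% ± 1.46 and at position 160 with 11.4% ± 3.48 (SD, n = 3). The last 2 lists lay near the 0.0473% of all genes.

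Of the 18 other genes with at least 4 candidates, each in 1 transcript, the closest to Alyref in the distance from first to last candidate were Slc30a5, a zinc transporter (9 candidates over 25 nt), Slc9a3r1, a scaffold protein (7 over 20 nt), and Paxbp1 (4 over 19 nt, from position 255 to 274). Their highest mean shares were 37.6%, 22.5% and 20.7%, above the 15.8% of Alyref. The likeness rests on the positions of candidates in 3 libraries.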

How the data were processed

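The deposited tables give, per the file headers, the coverage of each cytosine of a transcript as a raw read count and the fraction of these reads left unconverted. Per the submitters' processing notes, BSMAP and build mm9 were used; the versions, the annotation and how reads were counted are not stated in the sources used here. No listed cytosine had a coverage below 3. The product of coverage and unconverted fraction, whole within 1e-06 at 100% of cytosines, served as the unconverted read count.

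Transcripts were matched to symbols by accession without version (14932 of 15021; RefSeq, GRCm38.p6), and all rows of the 9 members were kept. Positions are those of the tables. Start sequences came from RefSeq (8 of 9 members had an entry). Every listed cytosine among the first 50 bases fell on a C in 3184 of 4485 transcripts with at least 5 of them, and in 4 of 6 members, including both shown.

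Tests ran over all 1639820 testable cytosines with Python 3.11.15 and scipy 1.17.1, and were tested on simulated data. The simulated counts were drawn independently, without extra spread between cytosines or reads shared by neighbours, so they do not cover these features of the data. At the median testable coverage of 33, 30 and 29 reads a count of 0 allows a share of up to 9.09%, 10% and 10.3%. The members, lists and tests were chosen with earlier results of these data known. Named were all members, each candidate in them and the highest testable cytosine of each, list genes with a candidate, and up to 3 genes like the member with most candidates. Other called positions were named after their values were seen. Alternatives varied the coverage and level minimum, the test, the background and the libraries used. Genomic coordinates are not given, as the annotation is of another build.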

Additional observations from a re-analysis of the deposited data

How the results depend on the processing

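The member candidates, 6 with Alyref and 2 without, numbered 6 and 2 at coverage minimums of 20 and 5 and with the transcript's own share as background, and 4 and 2 when candidates within 10 nt were counted once. A level minimum of 20% left 0 and 0 (86 in all genes), one of 5% gave 17 and 6 (3322), the highest of the 3 p-values 3 and 1 (109), and the beta-binomial test 5 and 1 (567). In all genes a coverage minimum of 20 gave 489 in place of 775. Leaving out 1 library gave 4 to 6 with Alyref, 1 without it and 754 to 825 in all genes. Position 1952 of Nsun2 and positions 183 and 187 of Alyref were lost under the level minimum of 20% alone of 10 alternatives each. Position 471 of Nop2 was lost under 6, position 147 of Alyref under 3 and position 188 under 2. The share difference from other genes, 0.179 and 0.137 percentage points, was 0.111 ± 0.121 and 0.0766 ± 0.0991 (SD, n = 3) when the median gene share was taken within each library and the 3 differences from other genes averaged, both smaller than their spread, and 0.163 to 0.196 and 0.120 to 0.161 with 1 library left out. The cause of these changes was not tested. No paired analysis was possible because there is 1 group. Depth limits Nsun3, Nsun4, Nsun6 and Trdmt1 most.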
